A study of Mus musculus with 6 samples.

Results

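Transcripts of 39 sarcomere and Z-disc genes were followed through the 6 libraries of an RNA immune-precipitation sequencing (RIP-seq) experiment on the mouse left ventricle. The genes were given by name and cover the thick filament and M-band (6 genes), titin (1), the thin filament (8), the Z-disc and costamere (17), an intermediate filament protein with its chaperone (2) and factors of sarcomere assembly and turnover (5). All 39 were found among the 46072 genes of the library tables. Ankrd23 had a second entry under another identifier, so that the list matched 40 entries.

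RIP-seq sequences the RNA that an antibody pulls down from a lysate. Anti-EZH2 recognises EZH2, the methyltransferase subunit of Polycomb repressive complex 2, and normal IgG served as the background antibody. The left ventricles came from male mice aged 10 weeks, with 2 mice in each of 3 groups. Sham mice received saline by the protocol and are called untreated in the labels. AngII 4 h and AngII 24 h mice received angiotensin II (AngII) at 1 mg/kg/min from a subcutaneous osmotic minipump for 4 or 24 h. Each group gave 1 IgG and 1 anti-EZH2 library, each mixed from 2 RIP products. The IgG and anti-EZH2 libraries of a group come from the same mice, and there are no replicates. The strain is labelled C57BL/6 for the 3 IgG libraries and for Sham anti-EZH2, C57BL/7 for AngII 4 h anti-EZH2 and C57BL/8 for AngII 24 h anti-EZH2. No other genotype or allele is given.

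A sarcomere is the contractile unit of striated muscle. Myosin thick filaments, held together at the M-band, slide along actin thin filaments whose calcium switch is the troponin complex on tropomyosin. Titin spans from the M-band to the Z-disc, where actinin cross-links thin filaments of neighbouring sarcomeres, and costameres tie the Z-disc to the cell membrane. In cardiomyocytes these proteins are made in large amounts, and mutations in many of their genes cause inherited cardiomyopathy.

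The libraries held about 3814000 to 7977000 fragments, as estimated from the FPKM of lowly expressed genes. In the separate library tables, mitochondrial genes held between 6.73% (AngII 4 h anti-EZH2) and 31.3% (AngII 24 h anti-EZH2) of the FPKM. All 10 cardiomyocyte markers had an FPKM above 1 in every library, with a summed FPKM of 2039, 2729 and 2762 by IgG and 1589, 2513 and 1656 by anti-EZH2, in the order of Sham, 4 h and 24 h of AngII that is kept throughout. The 5 erythroid markers summed to 920, 625 and 1454 by IgG and to 724, 587 and 810.0 by anti-EZH2. Of the 6 atrial markers, Myl4 and Myl7 had the highest FPKM in Sham. Myl4 had an FPKM of 9.50 (IgG) and 6.57 (anti-EZH2) in Sham, against at most 0.562 in the AngII libraries, and Myl7 had 14.3 and 12.2 against at most 0.491. Dkk3 had 1.17, 0.422 and 0.249 by IgG and 0.556, 0.357 and 0.265 by anti-EZH2. Nr2f2 went the other way by IgG, with 0.1725, 0.781 and 0.503, and had 0.839, 0.429 and 0.338 by anti-EZH2. Sln and Bmp10 were at 0 throughout. The 6 atrial markers together summed to 25.1 and 20.2 in Sham, mostly from Myl4 and Myl7, and to between 0.603 and 2.26 after AngII. Of the 8 skeletal muscle markers, Mylpf had an FPKM of 34.7 in AngII 24 h IgG and at most 0.371 elsewhere, and the other 7 were listed at 0 in that library. The part of these markers in the differences below was not tested. In tissue lysates, fewer cells of a type and less RNA per cell cannot be told apart.

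The members were abundant and kept nearly the same order in every library. Together they held 11.8%, 13.6% and 11.8% of the FPKM of nuclear protein-coding genes by IgG and 10.8%, 12.5% and 11.5% by anti-EZH2. Of the FPKM of all genes they held between 0.363% (Sham anti-EZH2) and 0.691% (AngII 24 h anti-EZH2). FPKM is a level per length of transcript, so that levels can be compared between genes. An FPKM above 1 was found in every library for 37 of the 39, above 10 for 26 and above 100 for 12. Spearman's rho between libraries, over these 37 genes, lay between 0.964 and 0.995, which is a description of genes measured in the same tissue. Myl2, Tpm1, Tnni3, Actc1, Myl3, Tnnt2 and Tnnc1 held between 82.3% and 83.5% of the summed FPKM of the members.

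Among thick filament genes, Myl2, the ventricular regulatory light chain, was the second most abundant nuclear protein-coding transcript in every library. Its FPKM was 3045, 3934 and 3294 by IgG and 2122, 3181 and 2114 by anti-EZH2. The essential light chain Myl3 followed with 755, 1088 and 981 in IgG and 576, 989 and 634 in anti-EZH2. Mybpc3, the myosin-binding protein C of the heart, lay between 54.0 and 100.2, the M-band protein Myom1 between 15.5 and 32.3, and Myom2 between 13.4 and 52.7. Myh7b, a slow-type myosin heavy chain, was low, between 0.147 and 1.54, from an estimated 7 to 35 reads.

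The thin filament had 5 of the 7 dominant transcripts. Tropomyosin Tpm1 had an FPKM of 1003, 1323 and 1199.5 in IgG and 817, 1346 and 869 in anti-EZH2. Inhibitory troponin Tnni3 had 937, 1433 and 1421 in IgG and 861, 1388 and 1033 in anti-EZH2. Tropomyosin-binding troponin Tnnt2 had 668, 1009 and 918 in IgG and 572, 1002 and 765 in anti-EZH2. All 3 were lowest in Sham within either antibody of these tables. Cardiac actin Actc1 had 761, 912 and 618 in IgG and 602, 859 and 379 in anti-EZH2, so that it was lowest at AngII 24 h, whereas the series table had it highest there. Actc1 is nearly identical in coding sequence to the skeletal actin Acta1, and reads shared by both could be split by the counting. Tnnc1, the calcium-binding troponin, had between 267 and 463. Lmod2 and Tmod1, which act at the pointed end of the thin filament, lay between 29.6 and 57.8 and between 30.4 and 53.6. Tnni1, the slow skeletal troponin that the fetal heart also makes, was listed at 0 in 3 libraries and at most at 0.134, with under 1 estimated read in every library, so that its ratios are not read here.

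The promoter sequences of 3 members are shown here as examples. In AngII against Sham Tnnt2 lay above and Actc1 and Myoz2 below the median member at both times, in both antibodies and both deposited tables. Tnni3 also lay above in this way, and Ttn, Csrp3, Cryab, Fhl1 and Nrap below. The 3 shown all hold a motif, whereas the windows of Tnni3, Csrp3 and Nrap hold none, so that the examples do not stand for all of these members. Each sequence is the 250 bases before the RefSeq transcription start (GRCm38.p6, which is the mm10 build), read on the coding strand, with matched motifs in capitals. Tnnt2 (first of 2 listed starts, chr1:135836084-135836333, plus strand) lies outside the GENCODE gene. Actc1 (chr2:114052876-114053125, minus strand) lies within a longer GENCODE transcript and is intronic there except for 12 bases of its UTR. Myoz2 (chr3:123034988-123035237, minus strand) holds 28 bases of a longer GENCODE UTR.
Tnnt2: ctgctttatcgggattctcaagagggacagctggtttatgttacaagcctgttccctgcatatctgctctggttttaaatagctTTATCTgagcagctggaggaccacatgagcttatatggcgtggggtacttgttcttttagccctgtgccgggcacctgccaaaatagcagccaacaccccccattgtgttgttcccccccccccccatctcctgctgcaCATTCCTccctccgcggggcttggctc
Actc1: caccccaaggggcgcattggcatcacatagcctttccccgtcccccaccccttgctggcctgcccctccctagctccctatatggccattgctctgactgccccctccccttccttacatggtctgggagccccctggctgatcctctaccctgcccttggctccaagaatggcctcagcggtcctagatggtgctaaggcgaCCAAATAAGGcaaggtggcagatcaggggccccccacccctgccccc
Myoz2: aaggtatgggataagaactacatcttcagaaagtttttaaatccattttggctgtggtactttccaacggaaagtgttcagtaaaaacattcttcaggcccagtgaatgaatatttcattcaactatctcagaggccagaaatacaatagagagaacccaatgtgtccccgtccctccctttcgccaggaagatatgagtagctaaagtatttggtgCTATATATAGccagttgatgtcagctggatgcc
The capitals in Tnnt2 mark a GATA motif (AGATAA, here on the opposite strand) that begins 166 bases before the start and an M-CAT motif (CATTCCT) that begins 27 bases before it. Actc1 held a CArG box 47 bases before the start, and Myoz2 an MEF2 motif (CTA and TAG with any 4 letters between) 33 bases before the start.

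M-CAT is bound by TEAD factors and the CArG box by serum response factor, while the MEF2 and GATA motifs carry the names of the factors that bind them. Windows from 250 bases before to 50 after the start were available for 33 members (47 windows) and searched on both strands. The CArG box was in 21.3% of member windows (Actc1, Fhl1, Fhl2, Ldb3, Myl3, Myom1, Nebl and Vcl) and in 1.63% of all 32851 windows. The MEF2 motif was in 19.1% against 3.69%, M-CAT in 17.0% against 5.36% and GATA in 19.1% against 11.2%. The second Tnnt2 start and the windows of Tnni3, Lmod2, Csrp3 and Nrap were among those that held none of the 4. Several windows of a gene overlap or share sequence, and a match describes letters only.

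Ttn, the giant spring of the sarcomere, had an FPKM of 65.5, 72.0 and 82.8 in IgG and 81.7, 66.2 and 68.2 in anti-EZH2. Its highest and lowest library differed by 1.26-fold, against a median of 1.89-fold for the members, but in the series table it reached from 26.2 to 69.3. Among Z-disc genes the titin cap Tcap had 241, 359 and 243 in IgG and 142, 335 and 175 in anti-EZH2, and the LIM protein Fhl2 had 147, 231 and 196 in IgG and 140.1, 228 and 201 in anti-EZH2. Csrp3, a LIM protein of the Z-disc, lay between 104 and 201, and the calcineurin-binding Myoz2 between 106 and 192. The actin cross-linker Actn2 lay between 37.5 and 74.2 and Ldb3, which binds actinin, between 42.5 and 70.2. The other 11 reached from Myot, a Z-disc protein with 1.22 to 3.06 and only 14 to 44 estimated reads, to Smpx with 25.03 to 58.2. Desmin (Des), the muscle intermediate filament, had 43.4 to 88.6, and its chaperone Cryab had 120.2 to 218. Assembly and turnover genes were lower. The myosin chaperone Unc45b had 8.39 to 15.8, the ubiquitin ligase Trim63 had 9.66 to 15.3, its relatives Trim54 and Trim55 had 11.3 to 22.9 and 1.49 to 7.88, and Fbxo32, a ligase component induced in muscle atrophy, had 1.90 to 5.02.

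**Figure D1:**
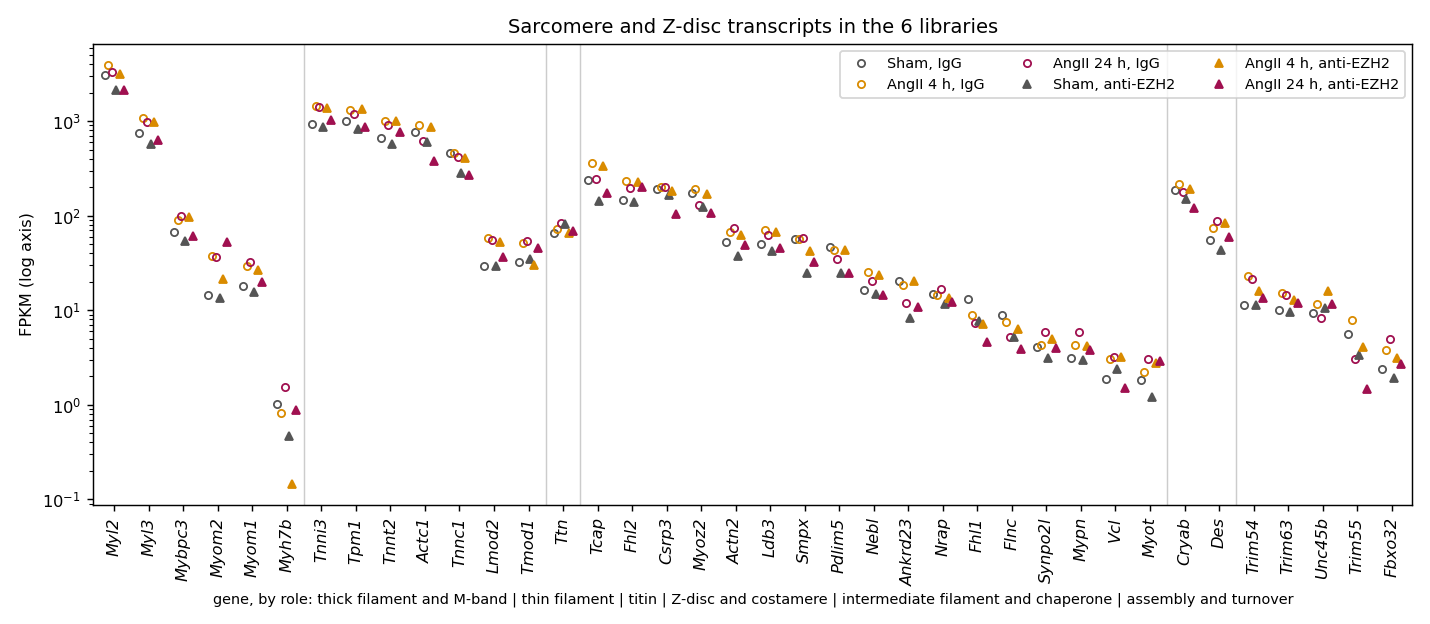
FPKM of 38 members (log axis) in each library, grouped by role and ordered by mean; Tnni1 is left out because it was listed at or near 0. Open circles are IgG and filled triangles anti-EZH2 libraries, in grey for Sham, orange for AngII 4 h and red for AngII 24 h. The order of genes hardly differs between libraries, from Myl2 at 2114 to 3934 down to Myh7b at 0.147 to 1.54.

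Whether anti-EZH2 pulled down more of these transcripts than IgG was asked first within each group, by the FPKM ratio. No member exceeded IgG by more than 2-fold in any group, where 12.2% of protein-coding genes with an FPKM above 1 did in Sham, 11.7% after 4 h of AngII and 9.1% after 24 h. This held for all 3 groups in the series table, but at AngII 24 h 2 of 38 members (Myom2 and Unc45b) passed after division by the library median (18.0% of protein-coding genes) and 10 of 38 after scaling to the sum of nuclear genes (40.8%). The last scaling moved the median ratio there to 1.67. The FPKM of the members at AngII 24 h summed to 10610 in IgG and 7364 in anti-EZH2. These sums were 0.504% and 0.691% of the FPKM of all genes in the 2 libraries, where mitochondrial genes held 13.9% and 31.3%. The part of these shares was not tested. The median ratio of the members was 0.792 in Sham, 0.920 after 4 h and 0.676 after 24 h. It lay beside that of all protein-coding genes, at 0.777, 0.909 and 0.647. Members were less spread, with a log2 ratio between -0.57 and -0.11 for the middle of the list in Sham (lower to upper quartile), against -0.97 and 0.31 for protein-coding genes. At AngII 4 h the quartiles were -0.24 and -0.01 against -0.64 and 0.40, and at AngII 24 h -0.66 and -0.34 against -1.29 and 0.03. Between 12 and 13 members stood among the 100 most abundant nuclear protein-coding genes of a library, and the part of depth in this spread was not tested.

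More than 2-fold below IgG were 3 of 38 members in Sham (24.0% of protein-coding genes), 0 of 37 after 4 h of AngII (15.2%) and 2 of 38 after 24 h (34.4%). In Sham these were Smpx, Ankrd23 and Myh7b. Smpx, a small protein of the costamere, had an FPKM of 57.3 in IgG and 25.03 in anti-EZH2, a ratio of 0.437 with a 95% counting interval of 0.348 to 0.546. Ankrd23, an ankyrin repeat protein that binds titin, had 20.3 and 8.37. Its second entry had 20.4 and 40.4 in the same libraries, the opposite order, and the series table gave a log2 ratio of 0.37. Myh7b had 1.03 and 0.471, from an estimated 27 and 16 reads, and an interval of the ratio from 0.226 to 0.865. At AngII 24 h vinculin (Vcl), which links actin to the costamere, had 3.23 and 1.497, a ratio of 0.463 (0.298 to 0.709). The ubiquitin ligase Trim55 had 3.07 and 1.49, a ratio of 0.484 (0.249 to 0.916) from 28 and 17 estimated reads. None of these 5 was called in more than 1 group of the separate tables. The calls of Vcl and Trim55 were lost in the series table and after either scaling, and scaling to the nuclear sum put both above IgG, with log2 ratios of 0.198 and 0.262. All 3 calls in Sham were lost after division by the library median. Scaling to the nuclear sum kept Ankrd23 and Smpx there, 2 of 37 members (19.5% of protein-coding genes). The series table called Smpx and Trim55 below IgG in Sham, also 2 of 37 (15.05%).

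Unc45b alone of 37 members was above IgG in all 3 groups. It stayed so after division by the library median, as 1 of 7 such members, and by the series table, as 1 of 10. The Unc45b ratio stood at 1.12 (0.917 to 1.39) in Sham, 1.36 (1.17 to 1.599) after 4 h and 1.38 (1.10 to 1.73) after 24 h. The counting interval left out 1 in both AngII groups. The deposited FPKM intervals overlapped there, however. After 4 h they were 7.63 to 14.9 in IgG and 9.39 to 18.5 in anti-EZH2. After 24 h they were 6.07 to 10.7 and 6.31 to 15.1. Antisense genes (Unc45bos and Slfn5os) overlap Unc45b, and their reads were told apart only if the counting used strand, which is not stated. Ttn was above IgG in Sham alone, at 1.25 (1.23 to 1.26), and had 0.920 (0.908 to 0.932) after 4 h and 0.824 (0.812 to 0.837) after 24 h. The deposited FPKM intervals of Ttn overlapped in all 3 groups, however. In Sham they were 57.2 to 76.1 in IgG and 71.0 to 93.7 in anti-EZH2. In the series table the log2 ratio of Ttn was above 0 in every group, at 0.42, 0.07 and 0.74. Myom2 had 0.926 (0.795 to 1.08) in Sham, 0.581 (0.529 to 0.638) after 4 h and 1.43 (1.30 to 1.57) after 24 h, the highest ratio of a member. The deposited intervals of Myom2 were apart after 4 h but overlapped after 24 h, at 32.6 to 41.7 in IgG and 35.0 to 56.2 in anti-EZH2. The related Myom1 was at 0.865, 0.893 and 0.619. The 25 members with a ratio below 1 in all 3 groups included Myl2, Myl3, Actc1, Tnnt2, Tnni3 and Tnnc1. That number was 9 after division by the library median and 3 (Fbxo32, Smpx and Trim55) in the series table. The share of all genes above or below 1 in all 3 groups was not taken. The median ratio of protein-coding genes was itself below 1 in each group, at 0.777, 0.909 and 0.647.

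**Figure D2:**
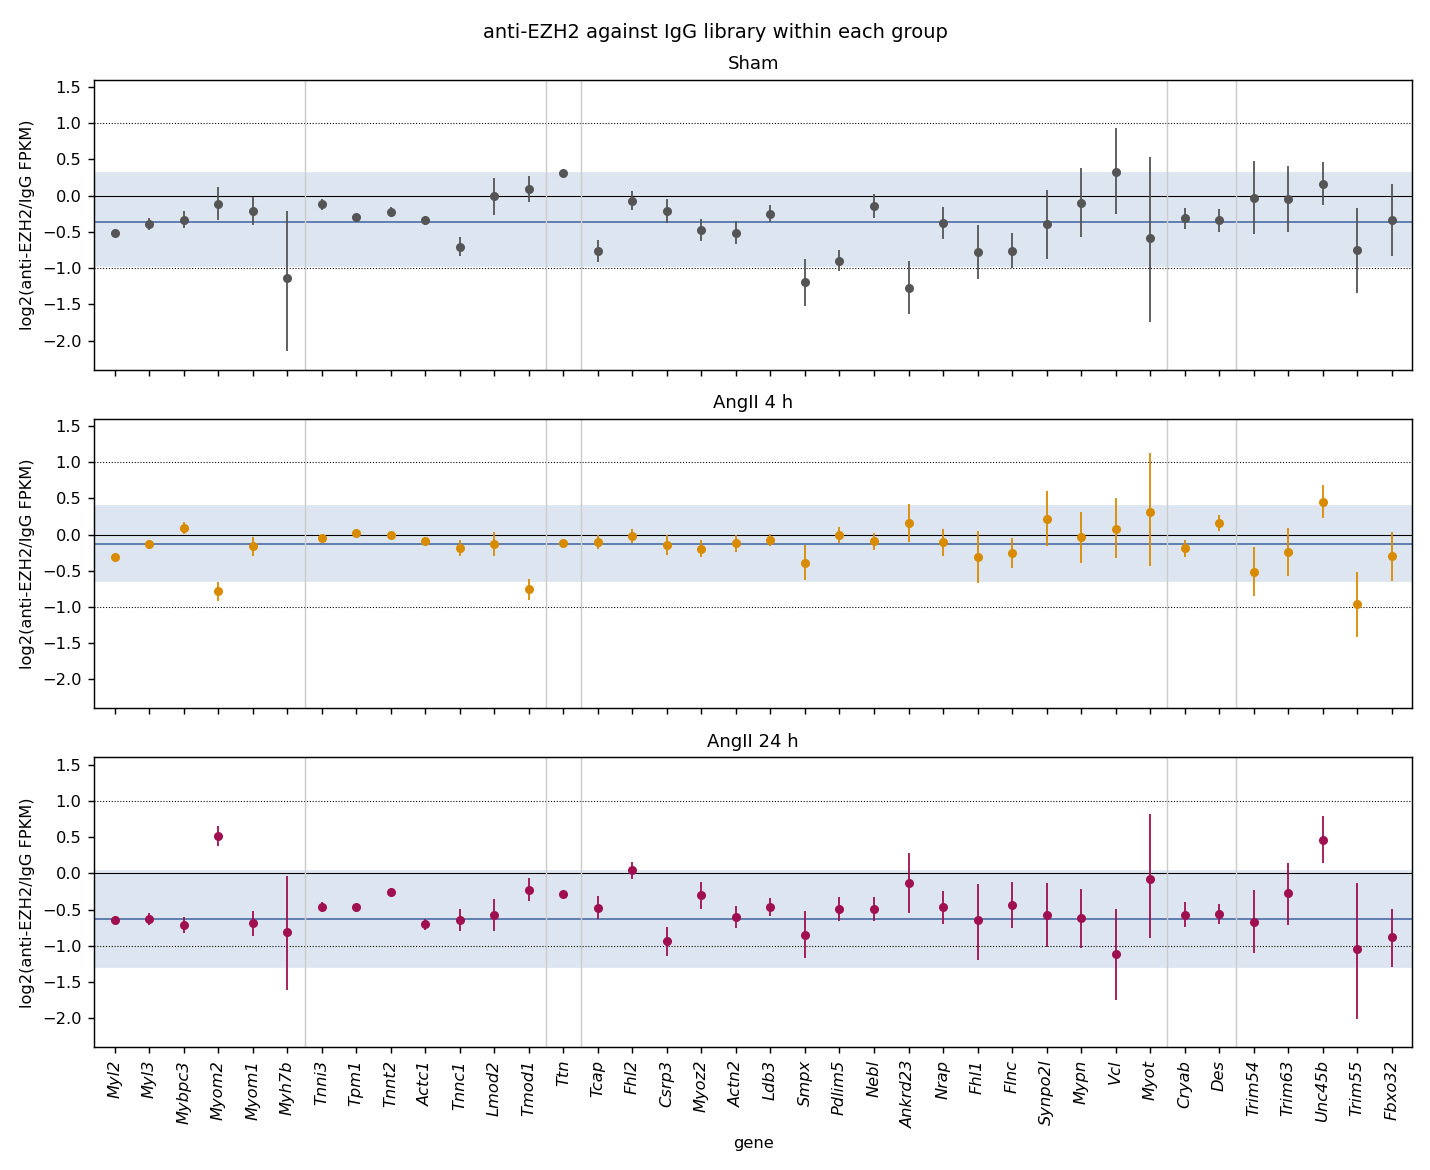
log2 of the anti-EZH2/IgG FPKM ratio of each member in the 3 groups. Points are ratios with their 95% counting intervals, drawn where the FPKM was above 1 in either library, the blue line and band are the median and quartiles of protein-coding genes, and dotted lines mark 2-fold; no point lies above the upper dotted line, and most points lie within the band.

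Taking the 3 groups as pairs, anti-EZH2 was tested against IgG with limma on log2(FPKM + 1). No member of the 37 tested was called higher or lower, where 0.0232% of the 8636 genes tested were called higher and 0.0% lower (adjusted p under the threshold). At an unadjusted p below the same threshold, 1 member of 37 was lower, Trim55, beside 600 of the 8636 genes in either direction. Trim55 had a log2 difference of -0.71 (SE 0.22, limma adjusted p = 0.663), with anti-EZH2 below IgG in 3 of 3 pairs. It did not pass at that unadjusted threshold in the series table, under either scaling, without the pairing or with any pair left out. Smpx had -0.79 (SE 0.30, adjusted p = 0.663) and Unc45b 0.33 (SE 0.24, adjusted p = 0.663). The median of the members was -0.31 and that of all genes tested -0.24. The pairs are 3 pools of mice under different treatments, so the error holds differences between treatments as well.

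AngII libraries were next compared with the Sham library of the same antibody, without a test since each group has 1 library per antibody. All comparisons share the Sham libraries. A member was called when it differed by over 1.5-fold in the same direction in both antibodies, which are the same mice and not replicates. At AngII 4 h, 8 of 37 members were higher (16.1% of protein-coding genes) and 0 lower (4.88%). They were Tnnt2, Tnni3, Myom1, Myom2, Nebl, Lmod2, Fhl2 and Fbxo32.

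Myom2 had an FPKM of 14.5 in Sham and 37.2 at AngII 4 h in IgG, a ratio of 2.56 (2.25 to 2.93), and 13.4 and 21.6 in anti-EZH2, a ratio of 1.61 (1.42 to 1.82). Lmod2, which nucleates and elongates thin filaments, had 29.7 and 57.8 in IgG (1.95, 1.67 to 2.29) and 29.6 and 52.7 in anti-EZH2 (1.78, 1.56 to 2.05). Tnnt2 was 1.51-fold higher in IgG and 1.75-fold in anti-EZH2, and Tnni3 1.53-fold and 1.61-fold. These are the transcripts that also stood among the most abundant. Myom1 was at 1.65-fold and 1.71-fold, Fhl2 at 1.57-fold and 1.63-fold, the nebulin-related Nebl at 1.52-fold and 1.58-fold, and Fbxo32 at 1.6004-fold and 1.64-fold.

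Most genes were higher in these libraries, however. The median log2 ratio of protein-coding genes at AngII 4 h was 0.22 in IgG and 0.43 in anti-EZH2, and that of the members 0.40 and 0.65. Relative to the median of each library, over protein-coding genes above 1 in all 6 libraries, the log2 ratio was 0.34 and 0.36 for Tnnt2, 0.71 and 0.38 for Lmod2, and 1.10 and 0.23 for Myom2 in IgG and anti-EZH2. On this scale 0 of 37 members passed 1.5-fold in both antibodies (6.33% of protein-coding genes higher and 10.4% lower). The series table also gave 0 (5.62% higher and 9.07% lower). The direction of Tnnt2 and Nebl in IgG turned there, with log2 ratios of -0.01 each.

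At AngII 24 h, 2 of 37 members were higher in both antibodies (10.4% of protein-coding genes) and 2 lower (7.16%). Myom2 had an FPKM of 36.8 in IgG and 52.7 in anti-EZH2, which is 2.54-fold (2.22 to 2.92) and 3.92-fold (3.49 to 4.41) its Sham level. The other was Myot, at 1.66-fold (0.823 to 3.30) and 2.36-fold (1.21 to 4.90), from few reads. Fhl1, a LIM protein that binds titin, had 13.0 in Sham and 7.30 at AngII 24 h in IgG, a ratio of 0.561 (0.421 to 0.756), and 7.62 and 4.66 in anti-EZH2, a ratio of 0.611 (0.436 to 0.849). Trim55 had 5.68 and 3.07 in IgG (0.540, 0.330 to 0.856) and 3.38 and 1.49 in anti-EZH2 (0.439, 0.237 to 0.782). Relative to the median of each library Myom2 stayed above 1.5-fold and Fhl1 and Trim55 below, with log2 ratios of 1.08 and 1.94, of -1.10 and -0.74, and of -1.15 and -1.21. These were 1 higher and 2 lower of the members, beside 7.65% and 10.4% of protein-coding genes. In the series table Fhl1 in anti-EZH2 had a log2 ratio of 0.34.

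The median log2 ratio of the members at AngII 24 h was 0.36 in IgG and 0.18 in anti-EZH2, against 0.27 and 0.00 for protein-coding genes. In the 2 libraries of each time the atrial markers Myl4 and Myl7 were lower than in Sham, as given above. Both stand in a wider list of 60 sarcomere genes outside the 39, of which 59 were found. In that list 4 of 46 were higher at AngII 4 h (Cfl2, Xirp1, Smyd1 and Tnnt1) and 2 lower (Myl4 and Myl7), beside 16.1% and 4.88% of protein-coding genes. At AngII 24 h 1 of 44 was higher (Cfl2) and 3 lower (Pdlim1, Hspb1 and Casq2), beside 10.4% and 7.16%. Myl4 and Myl7 were not counted at AngII 24 h, because a value of 0 in at least 1 library gives no ratio. Against IgG, 1 of 46 genes of the list in Sham, 1 of 44 after 4 h and 2 of 46 after 24 h exceeded 2-fold (12.2%, 11.7% and 9.1% of protein-coding genes), and 4, 2 and 10 were lower by over 2-fold (24.0%, 15.2% and 34.4%).

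**Figure D3:**
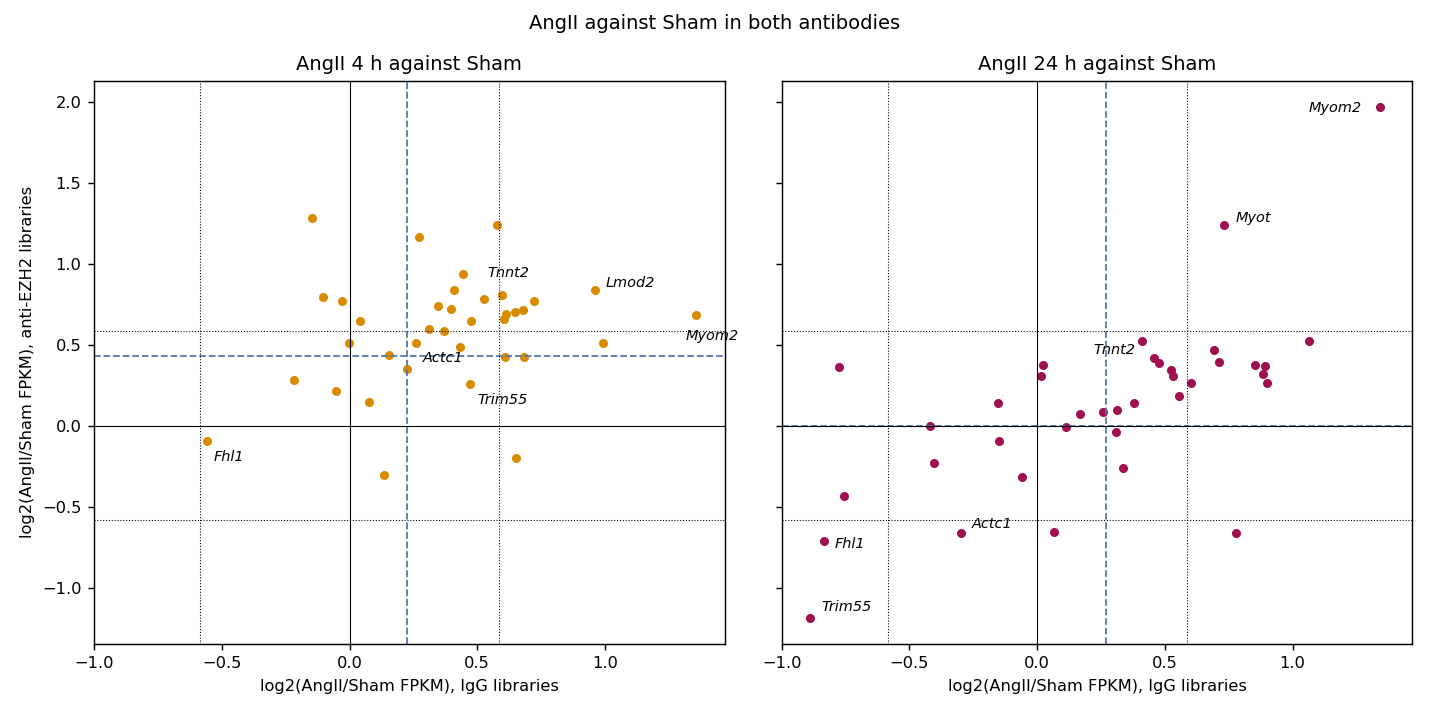
log2 of the AngII/Sham FPKM ratio of each member above an FPKM of 1, with the IgG libraries on the x axis and the anti-EZH2 libraries on the y axis. Dashed lines are the medians of protein-coding genes and dotted lines mark 1.5-fold; at AngII 4 h most points lie to the upper right of 0, while at AngII 24 h Myom2 stands at the upper right and Fhl1 and Trim55 at the lower left.

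Both deposited tables were made from the same libraries, but their scales differed between libraries. For Myl2 by IgG, the separate tables gave 3045, 3934 and 3294, where the series table gave 1032, 1006 and 3042. At AngII 4 h the median log2 ratio of the members in the series table was -0.08 in IgG and 0.10 in anti-EZH2. By the series table, 22 of 37 members were over 1.5-fold higher in both antibodies at AngII 24 h (38.5% of protein-coding genes) and 1, Trim55, lower (4.06%). The median log2 ratio of the members there was 0.94 in IgG and 1.17 in anti-EZH2, against 0.75 and 0.85 for protein-coding genes. Mitochondrial genes held 53.1% of the FPKM in Sham IgG and 17.1% in AngII 24 h IgG of that table, against 12.4% and 13.9% in the separate tables, and the part of this in the difference was not tested.

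Changes of a member relative to the median member of a library do not depend on a scale shared by the whole library. On this measure 10 of 37 members lay above the median member at AngII 4 h in both antibodies and both tables (Myl3, Tnnt2, Tnni3, Mybpc3, Myom1, Tcap, Nebl, Lmod2, Fhl2 and Fbxo32) and 10 below (Actc1, Tnnc1, Ttn, Csrp3, Myoz2, Flnc, Cryab, Fhl1, Nrap and Unc45b). At AngII 24 h 10 were above (Tnnt2, Tnni3, Actn2, Myom2, Des, Tmod1, Mypn, Synpo2l, Trim63 and Trim54) and 10 below (Actc1, Ttn, Csrp3, Myoz2, Nebl, Cryab, Pdlim5, Fhl1, Nrap and Trim55). Past 1.5-fold in all 4 were Myom2 above, by a log2 of 0.99 to 1.79, and Fhl1 and Trim55 below, by -1.69 to -0.84 and by -2.17 to -1.25. The tables hold the same reads, so that they are not independent. The median splits the members evenly in each comparison, so the 10 above and 10 below describe order within the list only. No share of other genes was taken on this measure.

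**Figure D4:**
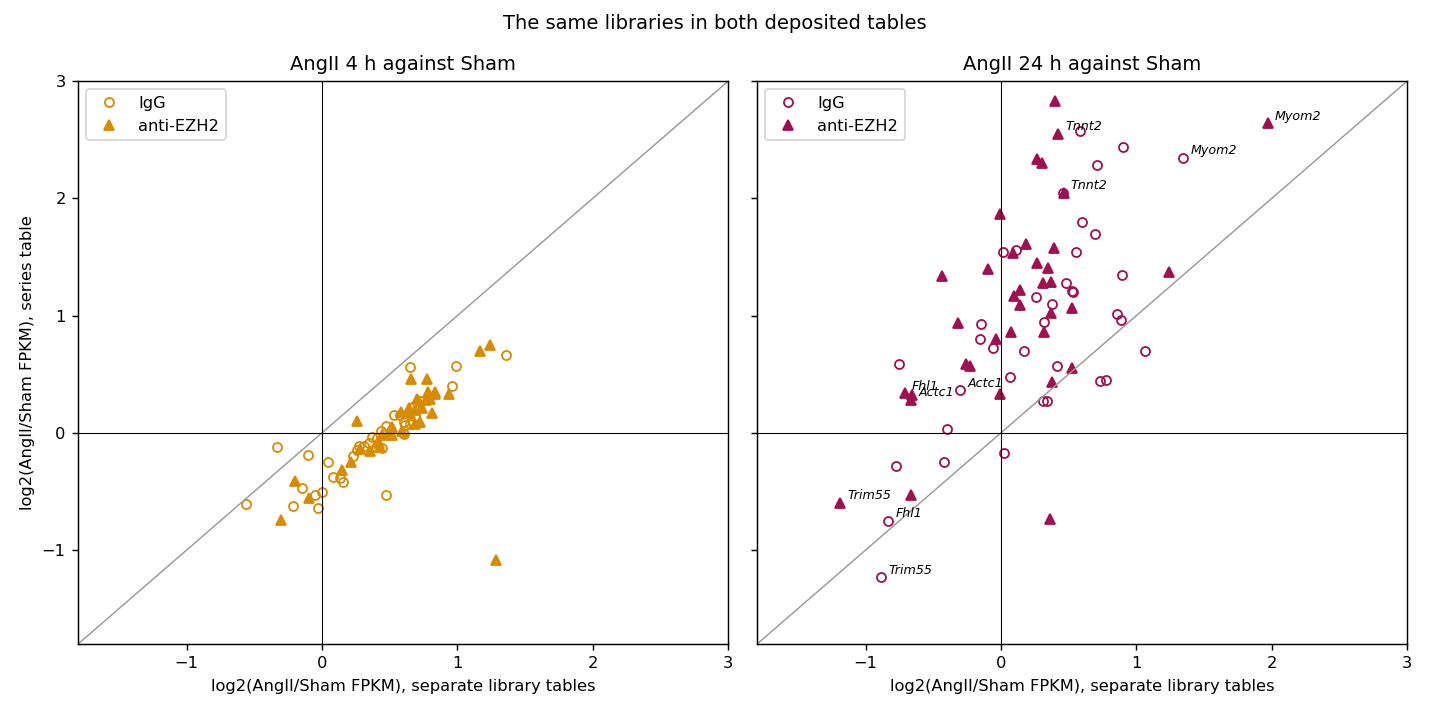
log2 of the AngII/Sham FPKM ratio of the members in the separate library tables (x axis) and in the series table (y axis), with open circles for IgG and triangles for anti-EZH2. Most points lie below the line of equality at AngII 4 h and above it at AngII 24 h, where Trim55 lies lowest of the named genes and Myom2 and Tnnt2 highest.

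Ratios between members within a library restate this in FPKM, for pairs picked after the values were known, and add no further evidence. The Tnnt2/Actc1 ratio was 0.877 in Sham, 1.11 after 4 h of AngII and 1.48 after 24 h by IgG, and 0.951, 1.17 and 2.02 by anti-EZH2. In the series table it was 0.558, 0.617 and 1.79 in IgG, and 0.554, 0.603 and 2.67 in anti-EZH2, so that the order of the groups was the same in all 4. The Actc1/Tpm1 ratio ran the other way, from 0.759 in Sham over 0.690 to 0.516 in IgG and from 0.736 over 0.638 to 0.437 in anti-EZH2. Tnni3 kept closer to Tnnt2, with a ratio between 1.35 and 1.55 in the separate tables, though it was 0.711 in the series table at AngII 24 h anti-EZH2. The Myom2/Myom1 ratio was 0.813, 1.26 and 1.14 in IgG and 0.870, 0.820 and 2.63 in anti-EZH2, where only the AngII 24 h libraries were above Sham in both antibodies. Tnni3 overlaps Dnaaf3 and Trim55 overlaps BC002189 on the same strand. Fhl1 (Gm23258), Myom1 (Gm26561), Myoz2 (Gm22066), Ankrd23 (Gm42417) and Myh7b (Mir499) also overlap another gene on the same strand. The FPKM of Tnnt2 and Tnni3 lay outside their own deposited interval in at least 1 library, as it did for Myl2, Tcap, Cryab and Tmod1.

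**Figure D5:**
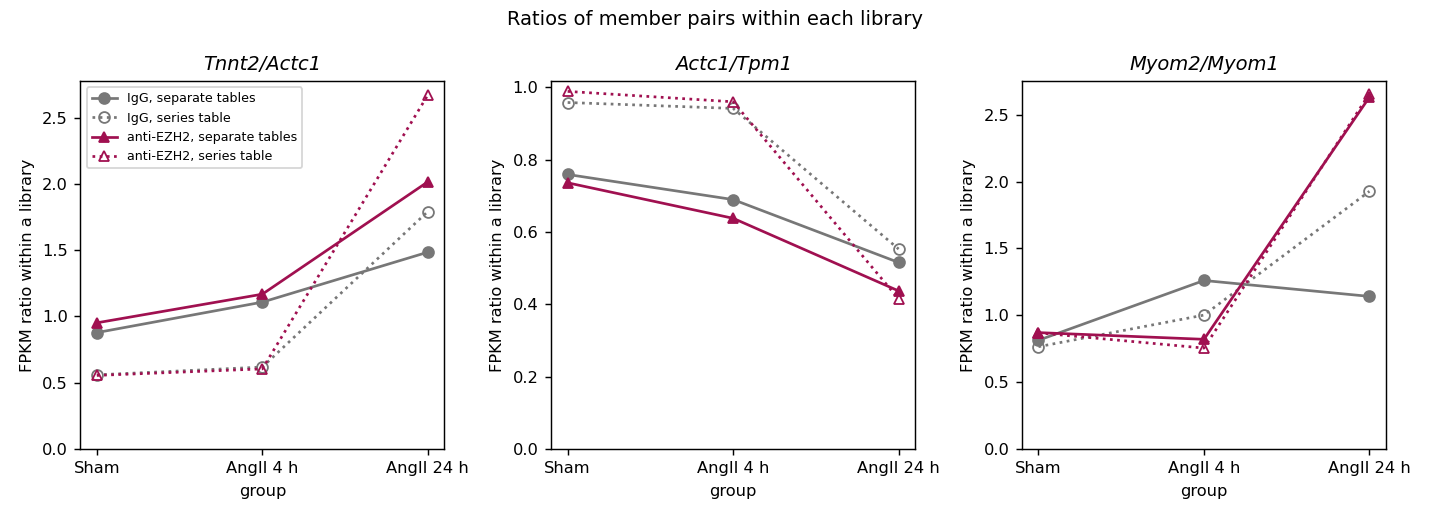
FPKM ratio of Tnnt2 to Actc1, Actc1 to Tpm1 and Myom2 to Myom1 within each library, by group. Circles are IgG and triangles anti-EZH2, with solid lines for the separate tables and dotted lines for the series table; Tnnt2/Actc1 is lowest in Sham and highest at AngII 24 h in every line, and Actc1/Tpm1 the reverse.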

How the data were processed

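RIP-seq was performed on mouse left ventricles in 3 groups with IgG and anti-EZH2. Stranded libraries were sequenced, and reads were aligned by the authors to mm10 using TopHat2. The authors deposited FPKM both per library, with intervals, and as 1 table of the series. Which program and annotation gave the FPKM is not given in the sources used here. Groups were taken from the labels.

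The separate tables (46165 entries, 46072 genes) gave the main values, and 787 values below 0.001 FPKM were set to 0. Where a gene had repeated entries, the entry with the highest mean FPKM was kept, and the other 93 were left out. Fragments were estimated from low FPKM values with an assumed fragment length (mean 200 nt, SD 80 nt), under which 60.7% to 65.5% of low values were whole within 0.1 reads. The 95% Clopper-Pearson intervals of ratios rest on these estimates and cover counting error only. For gene structure GENCODE M21 (GRCm38) was used, and for promoters RefSeq.

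The anti-EZH2/IgG ratio was called past 2-fold and the AngII/Sham ratio past 1.5-fold in both antibodies, at an FPKM above 1, without a pseudocount or test. Anti-EZH2 was tested against IgG with limma 3.58.1 (R 4.3.3; trend, group as block) on log2(FPKM + 1) of genes with a mean FPKM of at least 1, with Benjamini-Hochberg adjustment at 0.05. The block pairs libraries made from the same mice. All 39 members were named by role. The members and lists were chosen with earlier results of these data known. Alternatives were the series table, scaling to the median of protein-coding genes or to the sum of nuclear genes, other pseudocounts and folds, no filter, no block, deposited intervals apart and leaving out each pair. Intervals counted as apart only where each FPKM also lay inside its own interval. Either antibody alone and the change relative to the median member were added after seeing the data. Python 3.11.15 was used with pandas 2.3.3, scipy 1.17.1, matplotlib 3.10.9 and numpy 2.4.6, and procedures were tested on simulated data.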

Additional observations from a re-analysis of the deposited data

Results flagged for a closer look

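For 5 members the AngII 4 h and AngII 24 h libraries lay on opposite sides of Sham in both antibodies. This difference was not tested, and both times share the Sham libraries. The share of all genes that did so was not taken, so that the count is not read as a trait of the members. The difference of the log2 AngII/Sham ratios, AngII 24 h minus AngII 4 h and averaged over the antibodies, was -0.87 for Actc1, -0.61 for Myoz2, -0.48 for Cryab, -1.40 for Trim55 and 1.75 for Myh7b. Actc1, Myoz2, Cryab and Trim55 were above Sham at AngII 4 h and below it at AngII 24 h, while Myh7b was below and then above. Myh7b rests on 7 to 35 estimated reads per library and Trim55 on 17 to 99. In the series table Actc1 had log2 ratios of -0.15 and 0.05 at AngII 4 h and of 0.36 and 0.28 at AngII 24 h, in IgG and anti-EZH2. Cryab had -0.19 and -0.15 there after 4 h and 0.72 and 0.94 after 24 h, and Myoz2 had -0.42 and -0.02, then 0.03 and 0.57. Trim55 had -0.53 and 0.10 after 4 h and -1.23 and -0.60 after 24 h, and Myh7b -0.12 and -2.27, then 2.57 and 1.57. Of the 5, Myh7b alone showed the same opposite sides of Sham in both tables.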

How the results depend on the processing

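Differences between groups rest on 1 library each, and members under about 50 estimated reads (Myot, Myh7b, Trim55 and Vcl in some libraries) have wide counting intervals. For limma, 0 members were called in either direction under every alternative run, with or without the replicate block, and the block moved no call of a member (the pairs come from the same mice). Leaving out each pair in turn gave a members' median log2 of -0.395 to -0.213. This median turned to 0.197 under nuclear sum scaling, 0.078 in the series table and 0.005 under median scaling. Above IgG, Unc45b alone had an unadjusted p below the threshold, under the series table and under median scaling. Below IgG, Smpx passed it with a pseudocount of 0.1, without the filter and without the block. Trim55 also passed with a pseudocount of 0.1 and without the filter.

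Within groups, the members' median log2 anti-EZH2/IgG ratio turned to 0.153 (AngII 4 h) and 0.157 (AngII 24 h) in the series table and to 0.743 (AngII 24 h) under nuclear sum scaling. In Sham the 3 members below IgG became 0 under median scaling and 10 at 1.5-fold. At AngII 4 h 3 were below at 1.5-fold. At AngII 24 h the 2 below became 0 in the series table, 0 under median scaling and 0 under nuclear sum scaling. They became 0 with a pseudocount of 1, 1 with deposited intervals apart and 16 at 1.5-fold. Members above became 2 of 38 under median scaling (18.0% of protein-coding genes) and 10 of 38 under nuclear sum scaling (40.8%). No share of protein-coding genes was taken at 1.5-fold, with a pseudocount or with intervals apart. The log2 ratio in Sham turned to 0.179 for Myh7b and 0.367 for Ankrd23 in the series table, and at AngII 24 h to 0.198 for Vcl and 0.262 for Trim55 under nuclear sum scaling.

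For AngII against Sham, the 8 members higher at AngII 4 h became 0 in the series table, 0 under median scaling, 0 at 2-fold and 5 with deposited intervals apart. This last setting also required each FPKM to lie inside its own interval, which Tnnt2 and Tnni3 did not meet. The deposited intervals of Tnnt2 and Tnni3 were themselves apart from Sham in both antibodies, while those of Nebl overlapped. In the anti-EZH2 libraries alone 21 of 37 were higher, beside 42.5% of protein-coding genes. Tnnt2 and Nebl in IgG turned to -0.005 and -0.008 in the series table. At AngII 24 h the 2 higher became 22 in the series table (38.5% of protein-coding genes), 1 under median scaling (7.65%) and 14 of 38 under nuclear sum scaling (30.7%). They became 1 at 2-fold, 1 with a pseudocount of 1 and 1 with intervals apart. In the IgG libraries alone 11 of 38 were higher (36.6%). The 2 lower became 1 in the series table, 0 under nuclear sum scaling, 0 at 2-fold, 0 with intervals apart, and 4 and 5 in the IgG and anti-EZH2 libraries alone. The anti-EZH2 median of 0.18 became 1.171 in the series table and 1.445 under nuclear sum scaling. Fhl1 in anti-EZH2 turned to 0.335 (series table) and 0.512 (nuclear sum), and Trim55 to 0.034 (nuclear sum). The members' share of nuclear protein-coding FPKM was 5.68% (Sham IgG), 6.98% (AngII 4 h IgG), 3.98% (Sham anti-EZH2) and 6.49% (AngII 4 h anti-EZH2) in the series table. It was 8.86% (AngII 24 h IgG) and 10.7% (AngII 24 h anti-EZH2) there. The share was thus highest at AngII 24 h in both antibodies of the series table, but at AngII 4 h in the separate tables. The cause of these differences was not tested.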
